A study of Mus musculus with 8 samples.

Results

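The genes described here encode the nuclear-encoded subunits of the oxidative phosphorylation complexes, together with a few of their assembly factors. They were chosen by name, as every protein-coding gene of GENCODE M21 whose symbol starts with Nduf, Uqcr, Cox4, Cox5, Cox6, Cox7, Cox8 or Atp5, or is Sdha, Sdhb, Sdhc or Sdhd. The rule gave 93 of the 51826 genes counted. Of these, 36 encode complex I subunits, 8 are complex I assembly factors of the Ndufaf group, 4 encode complex II, 8 complex III, 19 complex IV and 16 complex V. Cox7a2l, a factor of respiratory supercomplexes, and Atp5s were kept apart from the subunits, with 1 gene each.

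Oxidative phosphorylation takes place in the inner mitochondrial membrane, where complexes I to IV pass electrons from NADH and succinate to oxygen. Complexes I, III and IV also pump protons, and complex V uses the proton gradient to make ATP. Most subunits are encoded in the nucleus, translated in the cytosol and imported, while a small core is encoded by mitochondrial DNA, so each complex is assembled from both sources. Resting lymphocytes, the main cells of the spleen, draw much of their ATP from this pathway, and activated lymphocytes add aerobic glycolysis.

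The RNA came from whole spleen cell suspensions of 8 mice, female Balb/c aged 3 months, 4 given all-trans retinoic acid (tRA) by mouth and 4 controls given the vehicle, canola oil. The study's methods state a daily tRA dose of 1 mg per kg of weight, begun at weaning, and these mice had no pristane, whereas the sample labels state that tRA dose for all 8 mice, so the groups follow the sample titles. Counts on genes totaled between 30919272 and 37539631 per control mouse and between 31810417 and 35165876 per tRA mouse. Levels are CPM, counts scaled to a common library size after TMM normalisation, and fold changes are tRA over control on the log2 scale.

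The tissue label was checked against lineage markers. Cd79a, a signalling chain of the B cell receptor, averaged 1396 CPM in the control mice and 1271 CPM in the tRA mice, whereas Ms4a1 (599 and 690 CPM), Fcer2a (787 and 872 CPM), Cd22 (1118 and 1174 CPM) and Cd79b (700 and 723 CPM), also of B cells, averaged higher in the tRA mice, and Blk (329 and 296 CPM), Pax5 (818 and 803 CPM) and Cr2 (708 and 697 CPM) lower. Cd3e, a chain of the T cell receptor complex, averaged 164 and 190 CPM. All 10 T cell markers examined passed the filter on low counts, so the label of total splenocytes was kept. Hbb-bs, a beta globin of red cells, differed widely within both groups, from 326 to 1554 CPM in the control mice and from 379 to 2315 CPM in the tRA mice. The study's methods for isolating splenocytes include a step in red cell lysis buffer.

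Of the 93 genes, 88 passed the filter on low counts, and the 5 that did not (Cox4i2, Cox7b2, Cox8b, Cox8c and Ndufa4l2) were at or near 0 in both groups. Among the 88, 81 had a log2 fold change below 0 and 7 above it, where 49.7% of all 16484 genes tested lay below 0. Their median log2 fold change was -0.17, which is a change of -11.2%, against 0.00 over all genes tested. The log2 fold changes ran from -0.54 for Ndufaf8 to 0.12 for Cox7a1, and the middle part between the quartiles ran from -0.27 to -0.09. In bulk splenocytes, fewer cells that express these genes and less of their RNA per cell cannot be told apart.

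No member passed the FDR threshold by edgeR, and 1 did so by DESeq2. By edgeR, whose p values were adjusted over all genes tested, 0 of the 88 genes had an FDR under 0.1, as were 0 of all genes tested (0%), and the lowest FDR among the 88 was 0.757. At an unadjusted p under 0.05, 26 of the 88 were lower with tRA and 0 were higher, whereas 3.55% of all genes tested were lower and 2.94% were higher at that p. DESeq2 gave an adjusted p to 86 of the members and called 1 of them, Ndufaf8 (1.16%), among 27 of 13625 genes with an adjusted p (0.198%). The count of 26 depended on single mice. It was 45 without tRA mouse 1, 17 without tRA mouse 2, 11 without tRA mouse 3 and 11 without tRA mouse 4. It was 13 without control mouse 1, 13 without control mouse 3, and 15 with an offset on exon length and GC content. Over all genes tested, the count at an unadjusted p under 0.05 moved too, from 1070 with all mice. Without tRA mice 1 to 4 in turn it was 2105, 762, 866 and 657. Without control mice 1 and 3 it was 877 and 906, and with the offset 914.

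In 9 of the 88 genes, every tRA mouse lay below every control mouse, or 10.2%, where 1.63% of all genes tested did so. In 0 of the 88 did every tRA mouse lie above every control mouse, against 1.91% of all genes tested. The 9 were Ndufaf8, Ndufc1, Ndufa11, Ndufb5, Uqcr11, Cox6a1, Cox7b, Atp5b and Atp5e, of which Ndufb5, Cox7b and Atp5b were named after their values were seen. Without tRA mouse 1 the count was 45, without control mouse 2 it was 14, and without control mouse 4 it was 15. With a mouse dropped, separation is easier for any gene, and the share of all genes tested is not given here. These counts therefore cannot be set against the 1.63%.

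In each of complexes I to V, control mice 1 and 3 averaged above control mice 2 and 4. Of the tRA mice, mouse 1 averaged highest and mouse 3 lowest in each complex, while the order of tRA mice 2 and 4 varied. The summed level of the 93 genes was 5232, 4764, 5544 and 4759 CPM in control mice 1 to 4 and 5062, 4560, 4231 and 4285 CPM in tRA mice 1 to 4. Control mice 1 and 3 were thus high, control mice 2 and 4 were lower, and tRA mouse 1 lay above the last 2 controls, so the groups overlapped through that animal. The sum averaged 5075 ± 384 CPM in the control mice and 4534 ± 380 CPM in the tRA mice (SD, n = 4 each). As a share of all counts, the 93 genes made up 0.515%, 0.481%, 0.534% and 0.476% in the control mice and 0.491%, 0.455%, 0.444% and 0.438% in the tRA mice.

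Gene by gene, the same animals took the extremes. Control mouse 3 had the highest level of the 4 controls in 61 of the 88 genes, or 69.3%, against 32.8% of all genes tested. Among the tRA mice, mouse 1 was the highest in 67 of the 88 (76.1%, against 32.6% of all genes tested) and mouse 3 was the lowest in 52 (59.1%, against 26.3%). The spread within a group was therefore shared by most of the genes rather than scattered among them.

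**Figure D1:**
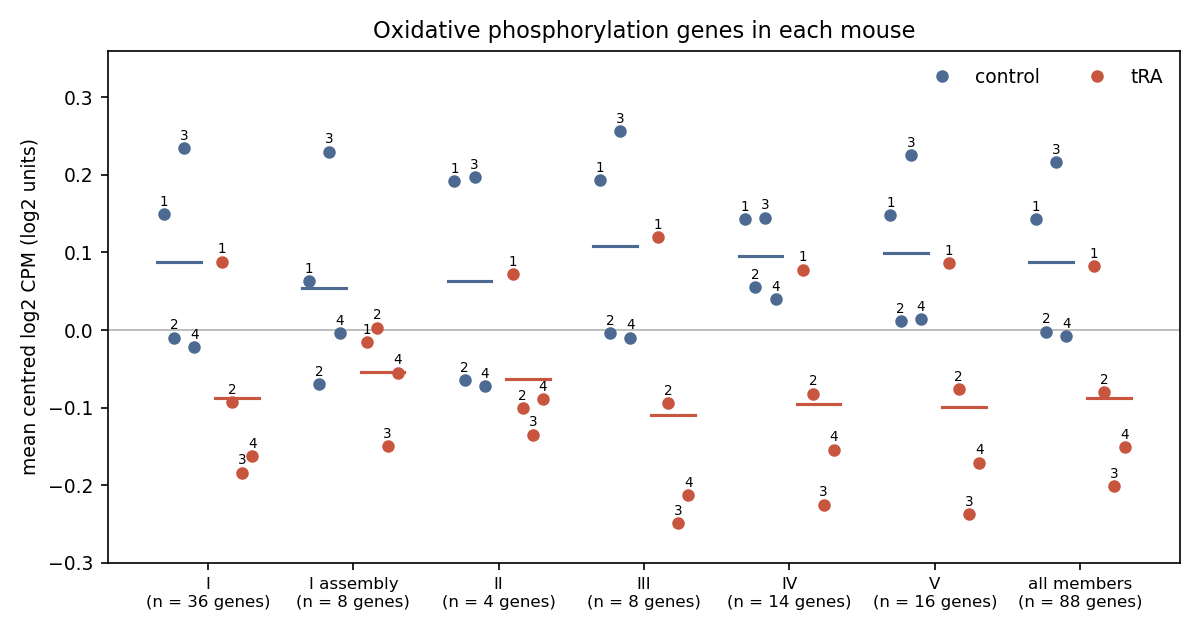
Mean centred log2 CPM (vertical axis, log2 units, 0 being the mean of the 8 mice for each gene) over the tested genes of each complex, the Ndufaf assembly factors and all 88 members. Each point is a mouse with its number, blue for control and red for tRA, and the bars are group means; over all members the control mice lie at 0.14, 0.00, 0.22 and -0.01 and the tRA mice at 0.08, -0.08, -0.20 and -0.15.

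Complex I, the NADH dehydrogenase through which most electrons enter the chain, had 33 of its 36 tested genes below 0, 11 of them at an unadjusted p under 0.05, with a median log2 fold change of -0.15 (-0.23 to -0.10 with 1 mouse dropped). Its mean centred log2 level was 0.15, -0.01, 0.23 and -0.02 in the control mice and 0.09, -0.09, -0.18 and -0.16 in the tRA mice. Only tRA mouse 1 of the treated animals lay among the controls on this scale. Levels per kb of exon length ran from 2.19 CPM per kb to 60.7 CPM per kb for Ndufb11, a membrane-arm accessory subunit encoded on the X chromosome. Per kb of the longest transcript, Ndufb10 was the highest, at 68.5 CPM per kb against 60.7 for Ndufb11.

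Ndufb11 measured 69.2, 56.3, 64.0 and 53.1 CPM in the control mice and 61.4, 50.2, 39.7 and 47.3 CPM in the tRA mice. tRA mouse 1 was again above control mice 2 and 4, while tRA mouse 3 was the lowest of all 8. The log2 fold change was -0.29 ± 0.13 (SE), with an unadjusted p of 0.0464 and an FDR of 0.757 in edgeR's quasi-likelihood test. Its exons share 117 bp with Rbm10 on the opposite strand, at 133 CPM. The TruSeq v2 protocol named in the methods does not usually keep the strand, and the sources used here do not state how counting treated it, so the level of Ndufb11 is uncertain.

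Ndufa11, a membrane-arm accessory subunit on chromosome 17, measured 22.2, 22.3, 23.3 and 21.5 CPM in the control mice and 20.4, 15.8, 15.8 and 17.8 CPM in the tRA mice. The controls were tightly grouped and all 4 tRA mice were below them, with tRA mouse 1 nearest. The log2 fold change was -0.36 ± 0.10, at an unadjusted p of 0.00388 and an FDR of 0.757 by edgeR, and 70 bp of its exons are shared with Vmac on the opposite strand, at 15.9 CPM, so its level is uncertain in the same way. Ndufc1, a small membrane-arm accessory subunit on chromosome 3, measured 7.90, 8.62, 8.78 and 7.76 CPM in the control mice and 6.93, 7.37, 5.42 and 5.99 CPM in the tRA mice. Here tRA mice 3 and 4 were the lowest, and tRA mouse 2 was nearest to the controls. Its log2 fold change was -0.36 ± 0.13, at an unadjusted p of 0.0160 and an FDR of 0.757 by edgeR.

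The 8 Ndufaf genes encode factors that build complex I and are not part of the finished enzyme. Of the 8, 7 were below 0 and 1 was at an unadjusted p under 0.05, and the median was -0.08, or -0.12 to -0.02 with 1 mouse dropped. Their levels were low, from 1.34 to 7.54 CPM per kb of exon length, with Ndufaf1 the highest. Per kb of the longest transcript, Ndufaf5 was the highest, at 8.16 CPM per kb against 7.66 for Ndufaf1. Ndufaf1, which acts in the assembly of the membrane arm, measured 10.9, 10.8, 13.4 and 11.5 CPM in the control mice and 9.80, 12.0, 11.1 and 11.1 CPM in the tRA mice. The groups overlapped, and the log2 fold change was -0.09 ± 0.11 (-0.13 to -0.02 with 1 mouse dropped), with an FDR of 0.882 by edgeR.

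Ndufaf8, a small cysteine-rich factor that works with Ndufaf5, had the most negative fold change of the 88 genes. It measured 7.09, 6.47, 8.00 and 6.62 CPM in the control mice and 4.89, 4.79, 5.07 and 4.70 CPM in the tRA mice. All 4 tRA mice lay within a narrow band below every control, and tRA mouse 1, which was high for most other members, was no exception. The means were 7.05 ± 0.689 and 4.86 ± 0.157 CPM (SD, n = 4 each), and 1605 counts over the 8 libraries stand behind them. The log2 fold change was -0.54 ± 0.12, a change of -31.0%, with an unadjusted p of 0.000958 and an FDR of 0.757 in edgeR's quasi-likelihood test. DESeq2 gave it an adjusted p of 0.0469, with tRA lower in 4 of 4 mice, while over all alternatives its adjusted p ran from 0.0469 to 1.00. The gene lies at chr11:120098928-120100705 on the plus strand of GRCm38, and no exon of another annotated gene overlaps its exons.

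**Figure D2:**
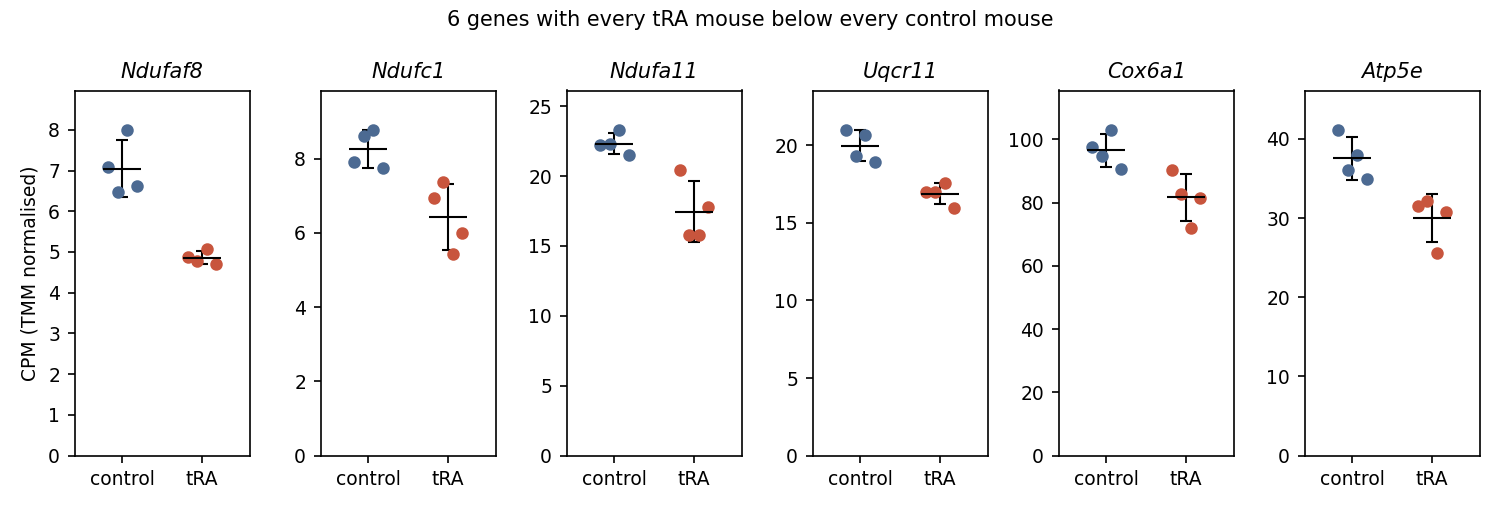
CPM (vertical axis, from 0) of the 6 genes with the most negative log2 fold changes among those whose groups do not overlap. Points are the 4 mice of each group, horizontal marks the means and error bars the SD; for Ndufaf8 the tRA mice lie between 4.70 and 5.07 CPM and the control mice between 6.47 and 8.00 CPM.

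Complex II, succinate dehydrogenase, belongs to both the citric acid cycle and the electron transport chain, and all of its subunits are nuclear-encoded. Its 4 genes were all below 0, with 0 at an unadjusted p under 0.05 and a median of -0.14, and this median ran from -0.20 to -0.07 with 1 mouse dropped and was -0.09 with the offset on exon length and GC content. Sdha, the flavoprotein subunit, measured 188, 163, 187 and 172 CPM in the control mice and 184, 172, 177 and 175 CPM in the tRA mice. All 4 tRA mice lay within the range of the controls, and the log2 fold change was 0.00 ± 0.07 with an FDR of 0.992 by edgeR. Sdhb, the iron-sulfur subunit, measured 64.1, 58.1, 65.2 and 54.8 CPM in the control mice and 62.4, 55.8, 56.8 and 57.4 CPM in the tRA mice. Every tRA value again lay within the control range, and its log2 fold change was -0.06 ± 0.07 (-0.10 to -0.03 with 1 mouse dropped) with an FDR of 0.885 by edgeR. The fold change of Sdhb turned to just above 0 with the offset on exon length and GC content.

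Sdhc and Sdhd encode the membrane anchors. Sdhc measured 39.7, 27.1, 31.8 and 27.4 CPM in the control mice and 30.7, 25.2, 23.9 and 26.4 CPM in the tRA mice. Control mouse 1 was well above the rest, and tRA mouse 1 lay above control mice 2 and 4. Sdhc had a log2 fold change of -0.25 ± 0.13, with an FDR of 0.780 by edgeR, and a range from -0.32 to -0.12 with 1 mouse dropped. Sdhd measured 50.6, 45.7, 63.2 and 44.7 CPM in the control mice and 48.8, 43.9, 40.3 and 41.3 CPM in the tRA mice. Control mouse 3 was the highest and the groups overlapped through tRA mouse 1, and the log2 fold change was -0.23 ± 0.11 with an FDR of 0.778 by edgeR, and it ran from -0.29 to -0.12 with 1 mouse dropped. Differences between the 4 genes were not tested.

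Complex III, the cytochrome bc1 complex that passes electrons from ubiquinol to cytochrome c, had 7 of its 8 genes below 0, 3 at an unadjusted p under 0.05, and a median of -0.25 (-0.31 to -0.19 with 1 mouse dropped). Its mean centred log2 level was 0.19, 0.00, 0.26 and -0.01 in the control mice and 0.12, -0.09, -0.25 and -0.21 in the tRA mice. Uqcrh, the hinge protein, had the highest level per length in the complex, 80.4 CPM per kb. Uqcrh measured 123, 92.4, 135 and 100 CPM in the control mice and 114, 85.4, 70.3 and 75.3 CPM in the tRA mice. The controls split into 2 high and 2 lower mice, and tRA mouse 1 lay between them, while tRA mice 2, 3 and 4 were below all controls. Uqcrh had a log2 fold change of -0.39 ± 0.16, with an unadjusted p of 0.0343 and an FDR of 0.757 by edgeR.

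Uqcr11, the smallest subunit of the complex, measured 21, 19.3, 20.6 and 18.9 CPM in the control mice and 17.0, 17.0, 17.6 and 16.0 CPM in the tRA mice. The groups did not overlap, and tRA mouse 3, low for most other members, was the highest of the tRA mice. The log2 fold change was -0.24 ± 0.08, with an unadjusted p of 0.0104 and an FDR of 0.757 by edgeR, and it was -0.08 with the offset on exon length and GC content. The 1 complex III gene above 0 was Uqcrc2, a core subunit, at 0.06 ± 0.06, named after its value was seen.

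Complex IV, cytochrome c oxidase, hands the electrons to oxygen. Of its 14 tested genes 13 were below 0, 5 at an unadjusted p under 0.05, with a median of -0.24 (-0.32 to -0.18 with 1 mouse dropped). Control mice 2 and 4 lay closer to tRA mouse 1 than in the other complexes, as the mean centred log2 level was 0.14, 0.06, 0.15 and 0.04 in the control mice and 0.08, -0.08, -0.23 and -0.15 in the tRA mice. Cox8a had the highest level of all 93 genes per kb of exon length, 186 CPM per kb, whereas per kb of the longest transcript it stood at 209 and Atp5b of complex V at 258. It measured 139, 121, 142 and 120 CPM in the control mice and 122, 100, 84.8 and 91.1 CPM in the tRA mice. tRA mouse 1 alone kept the groups from separating, as it was just above control mice 2 and 4. Cox8a had a log2 fold change of -0.39 ± 0.11, with an unadjusted p of 0.00495 and an FDR of 0.757 by edgeR.

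Several complex IV subunits come in a ubiquitous form and forms typical of muscle or other tissues, and the spleen data were read by level per length. Cox4i1 stood at 102 CPM per kb and Cox4i2, an isoform known from lung, at 0.0140, with 3 counts in all 8 libraries together. Cox6a1 stood at 127 CPM per kb against 4.96 for Cox6a2, the heart and muscle form. Cox6b1 stood at 76.7 CPM per kb against 0.699 for Cox6b2, a form known from testis. Cox7a2 stood at 35.0 CPM per kb against 1.27 for the muscle form Cox7a1, and the related supercomplex factor Cox7a2l stood at 131. Cox8a was accompanied by 5 counts in all for the muscle form Cox8b and 0 for Cox8c. Ndufa4, once assigned to complex I and now counted with complex IV, stood at 26.9 CPM per kb and its paralog Ndufa4l2 at 0.0711. In each of these sets the ubiquitous form was the more abundant, and Cox6a2, Cox6b2 and Cox7a1 also passed the filter on low counts.

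Cox6a1 measured 97.7, 94.8, 103 and 90.8 CPM in the control mice and 90.2, 82.9, 72.2 and 81.5 CPM in the tRA mice. Every tRA mouse was below every control, tRA mouse 1 only just. Its log2 fold change was -0.24 ± 0.08, with an unadjusted p of 0.00976 and an FDR of 0.757 by edgeR, and it was -0.05 with the offset on exon length and GC content. Cox6a2 measured 2.71, 4.202, 2.95 and 3.75 CPM in the control mice and 2.35, 4.44, 3.23 and 3.36 CPM in the tRA mice. Its groups overlapped fully, with a log2 fold change of -0.02 ± 0.22 and an FDR of 0.990 by edgeR, and 70 bp of its exons are shared with Itgad, an integrin gene on the opposite strand at 55.1 CPM.

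Among the other isoform genes, Cox4i1 measured 179, 153, 205 and 157 CPM in the control mice and 184, 143, 124 and 125 CPM in the tRA mice. tRA mouse 1 lay above 3 of the 4 controls, while tRA mice 2, 3 and 4 were below all of them, and the log2 fold change was -0.27 ± 0.14 (-0.41 to -0.19 with 1 mouse dropped) with an FDR of 0.778 by edgeR. Ndufa4 measured 44.0, 35.0, 46.2 and 39.3 CPM in the control mice and 36.6, 32.8, 32.3 and 31.2 CPM in the tRA mice. Only tRA mouse 1 exceeded the lowest control, and the log2 fold change was -0.31 ± 0.10 with an FDR of 0.757 by edgeR. The fold changes of Cox6b1 and Cox7a2 were -0.26 ± 0.11 (-0.35 to -0.18 with 1 mouse dropped) and -0.11 ± 0.13 (-0.21 to -0.02), with overlapping groups. For the rare forms Cox6b2 and Cox7a1, with 209 and 181 counts in all, they were -0.25 ± 0.31 (-0.41 to -0.05 with 1 mouse dropped) and 0.12 ± 0.36 (-0.09 to 0.48), and these levels were too low to show a difference of the size seen in the other subunits. Cox7a2l measured 198, 188, 233 and 198 CPM in the control mice and 215, 186, 158 and 175 CPM in the tRA mice, and tRA mouse 1 was above 3 controls, with a log2 fold change of -0.15 ± 0.10 (-0.24 to -0.09 with 1 mouse dropped) and an FDR of 0.793 by edgeR.

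Complex V, the ATP synthase, had 16 of 16 genes below 0, 6 of them at an unadjusted p under 0.05, with a median of -0.19 (-0.26 to -0.14 with 1 mouse dropped). Atp5a1 and Atp5b, the alpha and beta subunits of the catalytic head, had the highest levels per length, 151 and 116 CPM per kb of exon length, and their order turned to 177 and 258 CPM per kb when the longest transcript was used in place of all exons. Atp5a1 measured 505, 474, 519 and 467 CPM in the control mice and 489, 457, 437 and 432 CPM in the tRA mice. tRA mouse 1 lay among the controls and the other tRA mice below them, and the log2 fold change was -0.12 ± 0.07 with an FDR of 0.793 by edgeR. Atp5b, whose groups did not overlap, had a log2 fold change of -0.10 ± 0.06, so the most abundant genes of the complex differed by little.

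Atp5e, the epsilon subunit of the central stalk, measured 41.2, 36.1, 38 and 34.9 CPM in the control mice and 31.6, 32.2, 25.6 and 30.8 CPM in the tRA mice. The groups did not overlap and tRA mouse 3 was the lowest. Its log2 fold change was -0.32 ± 0.09, with an unadjusted p of 0.00461 and an FDR of 0.757 by edgeR. The membrane ring of the enzyme is made of subunit c, which 3 genes encode with different import sequences and the same mature protein. Per kb of exon length, Atp5g3 stood at 30.5 CPM per kb, Atp5g2 at 19.1 and Atp5g1 at 4.35.

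Atp5g1 measured 21.3, 22.4, 22.2 and 21.3 CPM in the control mice and 23.1, 21.1, 19.4 and 20.2 CPM in the tRA mice, and the groups overlapped with a log2 fold change of -0.06 ± 0.08 (-0.11 to -0.03 with 1 mouse dropped). Atp5g2 measured 36.2, 33.4, 39.4 and 33.1 CPM in the control mice and 35.5, 27.7, 25.7 and 25.2 CPM in the tRA mice. Atp5g3 measured 80.0, 65.9, 82.3 and 66.3 CPM in the control mice and 71.9, 59.7, 50.7 and 54.4 CPM in the tRA mice. In both, tRA mouse 1 lay among the controls and the other tRA mice below all of them, and the log2 fold changes were -0.32 ± 0.11 and -0.32 ± 0.12, each with an FDR of 0.757 by edgeR. The difference between the 3 genes was not tested.

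The members were short for protein-coding genes, with a median exon length of 1696 bp against 4390 bp over all protein-coding genes tested, and with nearly the same GC content, 50.01% against 49.85%. Their fold changes were more negative the shorter the gene, and so were those of other genes. For exons under 1000 bp, the 20 members had a median log2 fold change of -0.25 and the 302 other protein-coding genes one of -0.17. From 1000 to under 2000 bp the medians were -0.22 for 35 members and -0.11 for 1419 other genes. From 2000 to under 4000 bp they were -0.13 for 22 members and -0.04 for 4044 other genes, and from 4000 bp they were -0.06 for 11 members and 0.03 for 7293 other genes. With 1 mouse dropped, the medians of members and other genes ran from -0.30 to -0.21 and from -0.24 to -0.13 in the shortest class, from -0.27 to -0.16 and from -0.13 to -0.06 in the next, from -0.18 to -0.08 and from -0.05 to -0.01 in the one after, and from -0.10 to -0.03 and from 0.01 to 0.04 in the longest. In each of the 4 classes the members' median was below that of the other genes, and in each set the median came closer to 0 or rose above it as length grew.

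The mice also ranked alike in short genes that do not belong to the pathway. The 302 other protein-coding genes under 1000 bp had a mean centred log2 level of 0.06, 0.04, 0.18 and 0.00 in the control mice and 0.06, -0.08, -0.15 and -0.11 in the tRA mice, against 0.20, 0.01, 0.24 and 0.02 and then 0.08, -0.12, -0.25 and -0.19 for the 20 members of that length. Control mouse 3 was thus the highest and tRA mouse 3 the lowest in both sets. With an offset on exon length and GC content in the edgeR fit, the median log2 fold change of all tested members was -0.11, and 77 members were below 0. By class, from the shortest genes to the longest, the median was then -0.17, -0.15, -0.08 and -0.07 for members and -0.08, -0.03, 0.00 and 0.01 for the other genes. The TMM factors were 0.985, 1.01, 0.964 and 1.00 in the control mice and 0.971, 0.999, 1.05 and 1.02 in the tRA mice, lowest where the members were highest. The part of length and of the scaling in the result was not tested further.

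**Figure D3:**
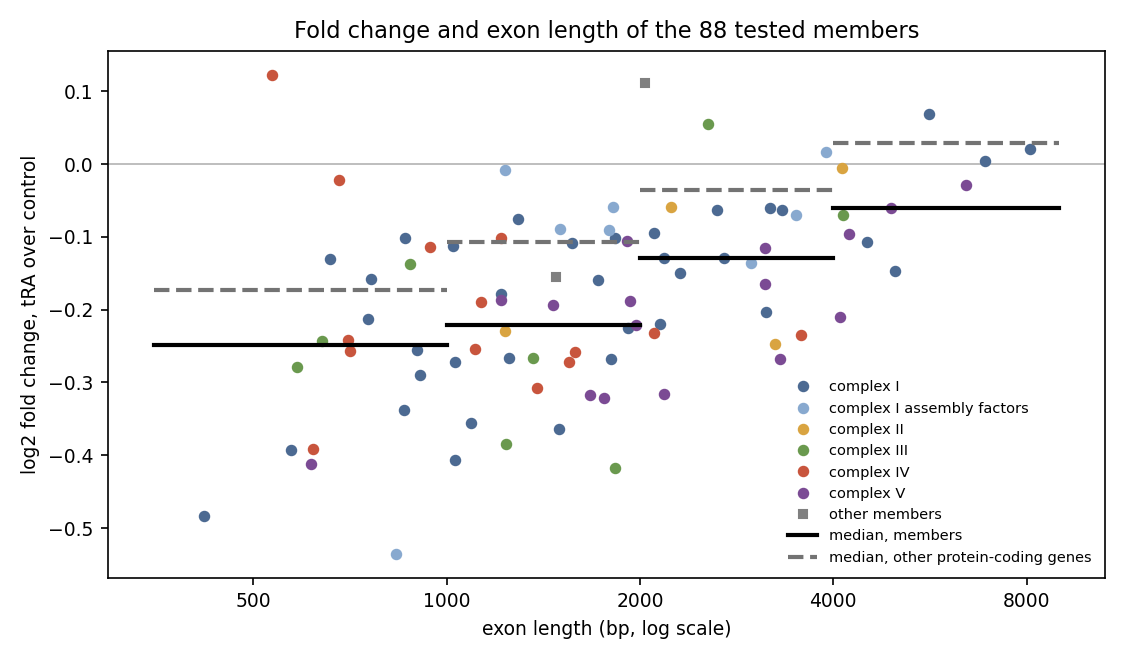
Log2 fold change, tRA over control (vertical axis), against exon length in bp (horizontal axis, log scale) for the 88 tested members, coloured by complex. Solid lines are the members' medians in 4 length classes and dashed lines those of the other protein-coding genes; the medians lie at -0.25 and -0.17 for the shortest genes and at -0.06 and 0.03 for the longest.

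The members are spread over 19 chromosomes, with at most 9 on any of them. Exons of 32 of the 93 are shared in part with another annotated gene, for 29 of them on the opposite strand. Beside Ndufb11, Ndufa11 and Cox6a2 the 32 include Cox4i1 (154 bp with Emc8), Atp5a1 (129 bp with Haus1) and Atp5g2 (75 bp with Mir688, on the same strand), and how shared bases were counted is not known here. Many members also have processed copies elsewhere in the genome. The 11 processed pseudogenes that carry a symbol of the same families held 92 counts in all 8 libraries, against 1292342 for the members, and copies under other names were not analysed here.

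The members' promoters were searched for binding motifs of factors known to act on this pathway. Whether the motifs go with the fold changes was not tested. RefSeq promoters of GRCm38.p6, 300 bp from 250 bases before to 50 bases after the start, were matched for 76 of the 93 genes, with 81 promoters. The NRF1 motif GCGCANGCG was in 28.4% of them on either strand, against 6.25% of all 32851 promoters. The ETS motif CCGGAAG, bound by GABP, was in 22.2% against 8.86%, and the YY1 motif AANATGGCG in 13.6% against 2.38%. At least 1 of these 3 was in 53.1% of the members' promoters and in 15.4% of all promoters. For the retinoic acid receptors, the half-site AGGTCA was in 21% against 16.3%. Its exact direct repeat with 5 bases between, a form of the classical response element, was in 0 of the 81 and in 3 of all 32851 promoters. An exact match this rare cannot show whether the members carry a response element, and sites outside the 300 bp were not searched. The study lists a tRA receptor binding site for Ndufaf8. A match is a description of these letters only, and none of these factors was measured for binding here.

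The promoters of the named genes below show how the motifs are placed, with NRF1, ETS and YY1 matches on either strand in capitals and the rest in lower case, each 5′ to 3′ along the gene. They are Ndufaf8 (chr11:120098684-120098983, plus strand), which had the most negative fold change, Ndufc1 (chr3:51408906-51409205, minus strand), Ndufa11 (chr17:56717512-56717811, plus strand), Uqcr11 (chr10:80406772-80407071, minus strand), Cox6a1 (chr5:115348909-115349208, minus strand) and Atp5e (chr2:174464052-174464351, minus strand), whose groups also did not overlap, and Cox8a (chr19:7217567-7217866, minus strand), with the highest level per kb of exon length.
Ndufaf8: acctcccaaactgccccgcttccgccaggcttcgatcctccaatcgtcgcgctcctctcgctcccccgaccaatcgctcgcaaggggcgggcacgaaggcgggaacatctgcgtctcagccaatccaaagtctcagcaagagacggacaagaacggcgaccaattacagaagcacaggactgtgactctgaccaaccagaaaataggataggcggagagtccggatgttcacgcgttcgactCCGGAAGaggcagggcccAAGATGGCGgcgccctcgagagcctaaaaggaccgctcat
Ndufc1: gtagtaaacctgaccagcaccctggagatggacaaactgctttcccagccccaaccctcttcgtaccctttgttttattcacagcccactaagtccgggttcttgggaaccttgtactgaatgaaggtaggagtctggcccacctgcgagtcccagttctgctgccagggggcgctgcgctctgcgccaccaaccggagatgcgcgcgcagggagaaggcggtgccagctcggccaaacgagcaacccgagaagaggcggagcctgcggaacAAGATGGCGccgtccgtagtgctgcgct
Ndufa11: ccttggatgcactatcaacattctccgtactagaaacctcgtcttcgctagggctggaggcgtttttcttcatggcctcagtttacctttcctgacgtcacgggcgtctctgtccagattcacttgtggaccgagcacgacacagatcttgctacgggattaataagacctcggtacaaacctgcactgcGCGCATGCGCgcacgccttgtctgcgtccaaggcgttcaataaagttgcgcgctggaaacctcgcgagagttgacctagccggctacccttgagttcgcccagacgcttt
Uqcr11: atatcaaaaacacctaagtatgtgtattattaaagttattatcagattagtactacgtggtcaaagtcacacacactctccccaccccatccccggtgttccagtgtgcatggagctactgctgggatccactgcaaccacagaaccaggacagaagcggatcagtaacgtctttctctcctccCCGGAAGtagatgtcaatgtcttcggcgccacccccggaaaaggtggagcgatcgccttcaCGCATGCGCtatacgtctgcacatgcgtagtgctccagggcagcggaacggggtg
Cox6a1: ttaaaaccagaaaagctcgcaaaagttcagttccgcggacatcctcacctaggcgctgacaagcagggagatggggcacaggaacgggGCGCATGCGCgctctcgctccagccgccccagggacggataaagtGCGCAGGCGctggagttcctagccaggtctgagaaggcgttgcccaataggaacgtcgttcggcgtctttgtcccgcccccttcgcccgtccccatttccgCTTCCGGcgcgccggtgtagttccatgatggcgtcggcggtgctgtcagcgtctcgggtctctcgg
Atp5e: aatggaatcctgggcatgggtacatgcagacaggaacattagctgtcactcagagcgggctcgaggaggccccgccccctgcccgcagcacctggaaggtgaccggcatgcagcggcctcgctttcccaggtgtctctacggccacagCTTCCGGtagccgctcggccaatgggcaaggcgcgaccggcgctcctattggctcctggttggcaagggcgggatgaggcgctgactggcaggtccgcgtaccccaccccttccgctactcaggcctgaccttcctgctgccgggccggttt
Cox8a: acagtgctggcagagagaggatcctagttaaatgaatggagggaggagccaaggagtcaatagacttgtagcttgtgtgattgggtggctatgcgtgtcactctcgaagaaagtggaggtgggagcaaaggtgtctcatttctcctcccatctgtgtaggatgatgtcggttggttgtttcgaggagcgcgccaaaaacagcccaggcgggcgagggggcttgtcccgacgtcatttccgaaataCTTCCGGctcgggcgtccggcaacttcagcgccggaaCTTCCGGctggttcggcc
Ndufaf8 has an ETS match and a YY1 match close to the start, Ndufc1 a YY1 match and Ndufa11 a palindromic NRF1 match that reads on both strands. Uqcr11 and Cox6a1 have both NRF1 and ETS matches, Atp5e 1 ETS match and Cox8a 2 ETS matches. The 7 promoters thus share no single motif.

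The genes of the pathway outside the naming rule were set beside the members. Of the 13 subunits encoded by mitochondrial DNA, 10 were tested, 8 of them above 0, with a median log2 fold change of 0.09 and 1 at an unadjusted p under 0.05, mt-Nd5 at 0.33, named after its value was seen. This median ran from 0.00 to 0.21 with 1 mouse dropped and was 0.01 with the offset on exon length and GC content. Their summed level was 39280, 47010, 70250 and 52420 CPM in the control mice and 55130, 61230, 50700 and 52010 CPM in the tRA mice, with mt-Co1 the most abundant. Control mouse 3 was the highest here as well, but control mouse 1 was the lowest, so the order of the mice differed from that of the nuclear-encoded subunits. The 13 were counted very unevenly, since mt-Co2, mt-Co3 and mt-Atp6 each averaged near 1 CPM while mt-Co1 averaged 23090 CPM in the control mice, and how reads with several matches in the genome were counted is not stated in the sources used here.

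Assembly factors with other names, such as Surf1 and Sco1 of complex IV, were centred near 0, with 24 of 41 tested genes below 0, 2 at an unadjusted p under 0.05 and a median of -0.02 (-0.04 to -0.01 with 1 mouse dropped). The lower 2 were Cox14, at -0.32 ± 0.14, and Sdhaf1, which helps to insert iron-sulfur clusters into Sdhb, at -0.47 ± 0.15, both named after their values were seen. The mobile carriers and coenzyme Q synthesis genes had 11 of 16 below 0 and a median of -0.04 (-0.09 to 0.00 with 1 mouse dropped), with Cycs, cytochrome c itself, at -0.20 ± 0.13. Cyc1, the cytochrome c1 subunit of complex III, whose symbol falls outside the naming rule, was kept in this list and was at -0.12 ± 0.07. Coq4 was the 1 gene of this list at an unadjusted p under 0.05, at -0.40 ± 0.13. The list of ADP and phosphate carriers and the inhibitor of complex V had 4 of 4 tested genes below 0 and a median of -0.14 (-0.18 to -0.08 with 1 mouse dropped, and -0.09 with the offset on exon length and GC content), from Slc25a4, a carrier, at -0.10 to Atpif1, the inhibitor, at -0.19, with Slc25a3, the phosphate carrier, at 406 CPM in the control mice and 361 CPM in the tRA mice on average.

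The citric acid cycle enzymes, which feed the chain with NADH and succinate, had 11 of 18 genes below 0, 0 at an unadjusted p under 0.05 and a median of -0.02 (-0.05 to -0.01 with 1 mouse dropped). Glycolysis genes had 16 of 18 below 0, 1 at an unadjusted p under 0.05 (Gapdh, at -0.19 ± 0.07) and a median of -0.12 (-0.15 to -0.08 with 1 mouse dropped). Known regulators of mitochondrial biogenesis were evenly split, with 7 of 14 below 0 and a median of 0.01 (-0.02 to 0.05 with 1 mouse dropped). Nrf1 was at -0.06 ± 0.07, Gabpa at 0.15 ± 0.08, Yy1 at 0.11 ± 0.08 and Tfam at -0.12 ± 0.11. Esrra, the estrogen-related receptor alpha, was the 1 regulator at an unadjusted p under 0.05. It measured 58.8, 50.3, 61.9 and 49.9 CPM in the control mice and 52.9, 43.4, 44.0 and 42.5 CPM in the tRA mice, with a log2 fold change of -0.27 ± 0.10 and an FDR of 0.757 by edgeR. Control mice 1 and 3 were high and tRA mouse 1 was the highest of its group, as in the members.

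Markers of cell types and of cell handling were read beside these values. The 15 immediate early and heat shock genes, which are induced when tissue is dissociated, were all below 0, 7 of them at an unadjusted p under 0.05, with a median of -0.52. Their summed level was 19190, 17730, 19530 and 16180 CPM in the control mice and 16740, 14080, 6250 and 9212 CPM in the tRA mice, with Fos (3184 CPM in the control mice and 2216 CPM in the tRA mice on average) and Fosb (3319 and 2027 CPM) the most abundant. With 1 mouse dropped, the median ran from -0.92 to -0.30, and it was -0.77 with the replicate block. tRA mice 3 and 4, the lowest in this list, were also the lowest in the members, and control mouse 3 was the highest in both. The part of this difference in the members' levels was not tested.

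The 13 neutrophil precursor granule genes were also all below 0, 11 at an unadjusted p under 0.05, with a median of -0.86. Their summed level was 572, 722, 759 and 653 CPM in the control mice and 264, 328, 360 and 516 CPM in the tRA mice, with Ngp the most abundant. The groups did not overlap, and tRA mouse 1 was the lowest, whereas in the oxidative phosphorylation genes tRA mouse 1 was the highest of its group. Plasma cell genes had 7 of 10 below 0, 4 at an unadjusted p under 0.05, and a median of -0.16. This median was -0.10 with the offset on exon length and GC content. The summed level of the plasma cell genes was 1132, 1082, 1110 and 1300 CPM in the control mice and 1000, 1130, 869 and 868 CPM in the tRA mice. Cycling cell genes, which would bear on cell growth, had a median of 0.00, and their sum was highest in tRA mouse 3, at 297 CPM, the mouse lowest in the members. T cell and NK cell genes had medians of 0.11 (0.06 to 0.19 with 1 mouse dropped) and -0.05, with 0 at an unadjusted p under 0.05 in either list. The part of cell composition in the members' levels was not tested.

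Of the other marker lists, mature neutrophil genes had a median of -0.08, monocyte and macrophage genes -0.01, dendritic cell genes -0.08, erythroid genes 0.27, platelet and megakaryocyte genes 0.03, and stromal and endothelial genes 0.01. At an unadjusted p under 0.05, 2 of the 9 mature neutrophil genes were lower (S100a8 at -0.63 and S100a9 at -0.58) and 1 of the 8 dendritic cell genes was higher (Cd209a at 0.27), all 3 named after their values were seen, with 0 in the other 4 lists. With 1 mouse dropped, the erythroid median ran from -0.21 to 0.51 and the dendritic cell median from -0.19 to 0.00, and the medians of the mature neutrophil, monocyte and macrophage, platelet and megakaryocyte, stromal and endothelial, NK cell and cycling cell lists also took both signs. Summed erythroid levels varied from 598 to 2561 CPM in the control mice and from 710 to 3790 CPM in the tRA mice, and tRA mouse 3 was the highest.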

How the data were processed

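Total splenocyte RNA of 4 tRA and 4 control mice, each a separate animal, was sequenced, and the authors deposited a raw count for every gene and mouse. The submitters' processing notes name STAR 2.5.2b, featureCounts 1.5.1, DESeq2 1.26.0 and GRCm38, whereas the study's methods name Tophat2 and HTSeq; whether counting used the strand is not given in the sources used here. The authors' own DESeq2 comparison was not used. Of 51826 identifiers, 51633 had an entry in GENCODE M21. Tests were run with edgeR 4.0.16 (R 4.3.3): filterByExpr with a minimum of 10 counts, TMM, the quasi-likelihood test and an FDR threshold of 0.1 over all genes tested. DESeq2 1.42.0 was an alternative, as were RLE, library size alone, 2 other filters, a loess offset on exon length and GC content (span 0.3), a block for replicate number, and fits that drop each mouse in turn. The script was tested on simulated data. Figures were drawn in Python 3.11.15 with matplotlib 3.10.9. Centred log2 levels used CPM with 0.5 added.

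Genes were named with values if they had an FDR under 0.1, were among the 6 most negative or 6 most positive fold changes whose groups do not overlap, had the highest CPM per kb of exon length in a complex, encode complex II, are Ndufaf8, which the study lists, or belong to a set of subunit isoforms. The members and gene lists were chosen with earlier results of these data known.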

Additional observations from a re-analysis of the deposited data

Results flagged for a closer look

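In 154 groups of 4 values examined, 3 values lay far from the other 3 of their group, where chance gives about 1 in 20. Cox6b1, a complex IV subunit, stood at 58.7 CPM in tRA mouse 1, while the other tRA mice lay between 45.2 and 47.2 CPM. The mean centred log2 level of the stromal and endothelial markers was 0.46 in tRA mouse 3, against -0.20 to -0.12 in the other tRA mice. The summed level of the NK cell markers was 285 CPM in tRA mouse 4, against 321 to 326 CPM in the other tRA mice.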

How the results depend on the processing

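The members' median log2 fold change stayed negative under all 16 alternatives: -0.16 by DESeq2, -0.17 by RLE, -0.14 by library size alone, -0.16 without a filter, -0.17 for genes that had 10 counts or more in all mice, -0.11 by the offset on exon length and GC, and -0.24 to -0.12 when 1 mouse was dropped. DESeq2 called 1 member and 27 genes, and edgeR without a filter called 6 genes. When 1 mouse was dropped, edgeR called 0 members and 0 to 3 genes. Members at an unadjusted p under 0.05 then numbered 11 to 45, while the count over the whole gene set ranged from 657 to 2105. Members below 0 numbered 79 to 83 in those fits. Members whose groups do not overlap numbered 9 to 45, but separation is easier with a mouse dropped. No share over the whole gene set is given for that count. By the offset, 15 members had an unadjusted p under 0.05. Ndufaf8 was at -0.53 by DESeq2, with an adjusted p of 0.0469.

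Fold changes near 0 changed sign. Sdha was at 0.02507 by library size alone and at -0.04283 to 0.02424 when 1 mouse was dropped. Sdhb was at 0.01018 by the offset and at 0.01237 by offset and replicate block. Cox6a2 was at 0.005744 by library size alone, 0.06494 by the offset, 0.05241 by offset and replicate block, and -0.1912 to 0.1133 when 1 mouse was dropped. Cox7a1 was at -0.09423 to 0.4838 in those fits.

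A block for replicate number gave 0 members and 0 genes called, 32 members at an unadjusted p under 0.05 and a median of -0.17. In deviations from the group mean over all genes tested, mice of the same number correlated at 0.157, -0.0229, -0.014 and 0.259. Mice of different numbers correlated at -0.283 to 0.271. The values for the same number lay within this range, which does not show a pairing by number and cannot exclude one.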
